A study of Mus musculus with 20 samples.

Results

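The genes described here encode the nucleolar machinery that makes ribosomes. They were 52 genes listed by symbol for ribosomal RNA (rRNA) transcription, processing and ribosome assembly, each read from the deposited log2 signals of its probe set (with the highest mean where a gene had several). Of these, 49 were measured among the 19505 genes tested; Nop56, Ebna1bp2 and Gnl3 were carried by no probe set in the annotation used here.

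Ribosomes begin in the nucleolus, where RNA polymerase I copies the rRNA genes into a long precursor. Small nucleolar ribonucleoproteins (snoRNPs) guide the modification of this precursor, and large successive complexes cut and fold it into the 40S and 60S subunits. Resting lymphocytes make few ribosomes and raise their production before they divide. The kinase complex mTORC1, which the small GTPases Rheb and Rag switch on in response to growth signals and amino acids, is a known activator of rRNA synthesis, and the transcription factor Myc is a known activator of many genes of this machinery.

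RNA came from sorted CD4+CD25+ regulatory T cells (Tregs) of C57BL/6 mice, 1 Clariom S array per sample and 20 arrays in all. The Rheb experiment had 12 arrays, 3 each of wild-type (WT) and Rheb1/2 KO Tregs, unstimulated and stimulated. The Rag experiment had 8 arrays, 2 each of WT and RagAB KO Tregs, unstimulated and stimulated for 8 h. The study's title places both in a question on how amino acid signals license Treg function, and the comparisons ask how the members respond to stimulation with and without each GTPase. The sources used here do not give the stimulus, its duration in the Rheb experiment, the Cre driver of the deletions or the age of the mice. Whether separate mice stood behind the arrays of a group is also not stated, and p-values then cover only the spread between these samples, which may be technical. For 6 arrays of the Rheb experiment (unstimulated KO and stimulated WT) the treatment field contradicts the title, and groups follow the titles.

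Levels are log2 signals, so a difference of 1 is a doubling, and levels of different genes were not compared. A gene was called when limma gave an adjusted p below 0.05, with the adjustment made across every gene measured. Rheb experiment arrays had medians of 7.67 to 7.77 over all genes, and Rag experiment arrays of 7.18 to 7.55. On single arrays 17 to 23 of the 49 members exceeded the 95th percentile of the negative control probe sets in the Rheb experiment and 14 to 36 in the Rag experiment. That threshold was passed on every array by 12 members and on no array by another 12: Polr1a, Rrn3, Utp15, Utp18, Rrp12, Ddx10, Dkc1, Noc3l, Rrs1, Ddx56, Ftsj3 and Gtpbp4. Dkc1 and Ddx56 also fell below the median negative control, on 5 and 10 arrays. Of the deleted genes, Rheb and Rraga were called lower in their knockouts in both states (-0.88 and -0.93 for Rheb, -2.43 and -2.18 for Rraga). Rhebl1 had changes of -0.38 unstimulated and -0.76 stimulated in Rheb1/2 KO (adjusted p = 0.522 and 0.119). Its group means there lay between 5.18 and 5.94, under the lowest median negative control of that experiment (6.86). Rragb had changes of -0.08 and -0.22 in RagAB KO (adjusted p = 0.973 and 0.955). Neither Rhebl1 nor Rragb was called.

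The labelled cell type was checked against 14 measured Treg identity genes. Their group means lay above the 95th percentile of the negative controls for 10 to 12 of the 14 in every group. Foxp3, the defining factor, has no named probe set here and was not analysed. Of 12 macrophage genes, none passed that percentile in any group. The log2 of their summed signal was 11.03 to 11.08 in unstimulated WT and 11.46 to 11.56 in unstimulated Rheb1/2 KO arrays, against 10.33 to 10.49 and 10.25 to 10.34 after stimulation, when 9 of the 12 fell below the median negative control in each genotype. Across the 8 arrays of the Rag experiment it lay between 9.53 and 10.46. Of 12 dendritic cell genes, 2 passed the 95th percentile in unstimulated Rheb1/2 KO, 2 in unstimulated RagAB KO, 1 in stimulated RagAB KO and none elsewhere. Of 10 NK cell genes, 1 passed it in every group of the Rag experiment and in unstimulated Rheb1/2 KO. No B cell or CD8 T cell gene did in any group.

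RefSeq promoter sequences (build GRCm38.p6, 250 bases before to 50 after the gene start) were found for 46 of the 52 members. The letters CACGTG, the canonical E-box that Myc and related factors bind, occurred in this window in 9 of the 46 genes (19.6%) and in 8.09% of all 27025 genes in the table. In the 250 bases before the start alone, the counts were 4 members (8.7%) and 6.86% of all genes. The letters CCGGAAG, the core of sites bound by ETS family factors, occurred in the 300-base window in 16 of the 46 (34.8%) and in 9.93% of all genes. Both motifs were searched on both strands and overlapped each other in none of the printed sequences, and the table also holds non-coding genes. A match describes letters, not a bound site.

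The promoters of 4 members called in WT responses are printed below, because Nop2, Rrn3 and Utp18 carry an E-box before the start and moved in different directions, while Nop16 carries none and moved like Nop2. Each run is the 250 bases before the gene start, 5′ to 3′ on the gene's strand, with the matched motifs in capitals. Nop2 (chr6:125131633-125131882, plus strand) has CACGTG 60 bases and CCGGAAG 38 bases before its start. Utp18 (chr11:93885767-93886016, minus strand) has them at 20 and 106 bases. Rrn3 (chr16:13780449-13780698, plus strand) has CACGTG at 215 and 48 bases, and Nop16 (chr13:54590075-54590324, minus strand) has neither motif.
Nop2: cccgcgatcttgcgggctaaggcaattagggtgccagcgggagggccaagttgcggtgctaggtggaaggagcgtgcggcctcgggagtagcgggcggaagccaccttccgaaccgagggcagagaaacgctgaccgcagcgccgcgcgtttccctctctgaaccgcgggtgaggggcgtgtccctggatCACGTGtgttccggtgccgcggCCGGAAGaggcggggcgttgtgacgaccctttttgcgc
Rrn3: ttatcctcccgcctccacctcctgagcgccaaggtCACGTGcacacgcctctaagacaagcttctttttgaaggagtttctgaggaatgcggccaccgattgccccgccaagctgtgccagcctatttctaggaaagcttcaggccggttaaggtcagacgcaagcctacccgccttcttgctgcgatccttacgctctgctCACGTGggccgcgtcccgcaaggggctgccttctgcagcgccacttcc
Utp18: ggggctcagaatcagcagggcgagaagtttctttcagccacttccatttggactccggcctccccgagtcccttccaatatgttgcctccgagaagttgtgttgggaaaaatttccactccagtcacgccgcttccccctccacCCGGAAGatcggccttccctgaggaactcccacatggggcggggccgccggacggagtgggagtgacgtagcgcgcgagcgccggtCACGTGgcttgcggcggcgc
Nop16: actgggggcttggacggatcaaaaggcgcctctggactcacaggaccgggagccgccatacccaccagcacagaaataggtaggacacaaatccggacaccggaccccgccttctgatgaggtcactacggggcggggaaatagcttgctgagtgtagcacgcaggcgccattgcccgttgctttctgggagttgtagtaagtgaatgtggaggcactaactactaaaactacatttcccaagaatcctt

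Most members had a positive change with stimulation in each of the 4 responses, and few passed the test. In WT Tregs of the Rag experiment all 49 members had a positive change, with a median of 0.83 (1.78-fold), and in WT Tregs of the Rheb experiment 43 of 49 did, with a median of 0.20 (1.14-fold). The medians over all genes were 0.21 and 0.02. In RagAB KO Tregs 47 members were above 0 (median 0.70, all genes 0.09), and in Rheb1/2 KO Tregs 32 were (median 0.09, all genes -0.01). Across all 4 responses 31 members were above 0 each time and 0 were below it each time. In bulk RNA, fewer cells of a type and less RNA per cell cannot be told apart. The experiments differ in the number of arrays, in stated duration and in knockout, so the sizes of the responses are set side by side and were not tested against each other.

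**Figure D1:**
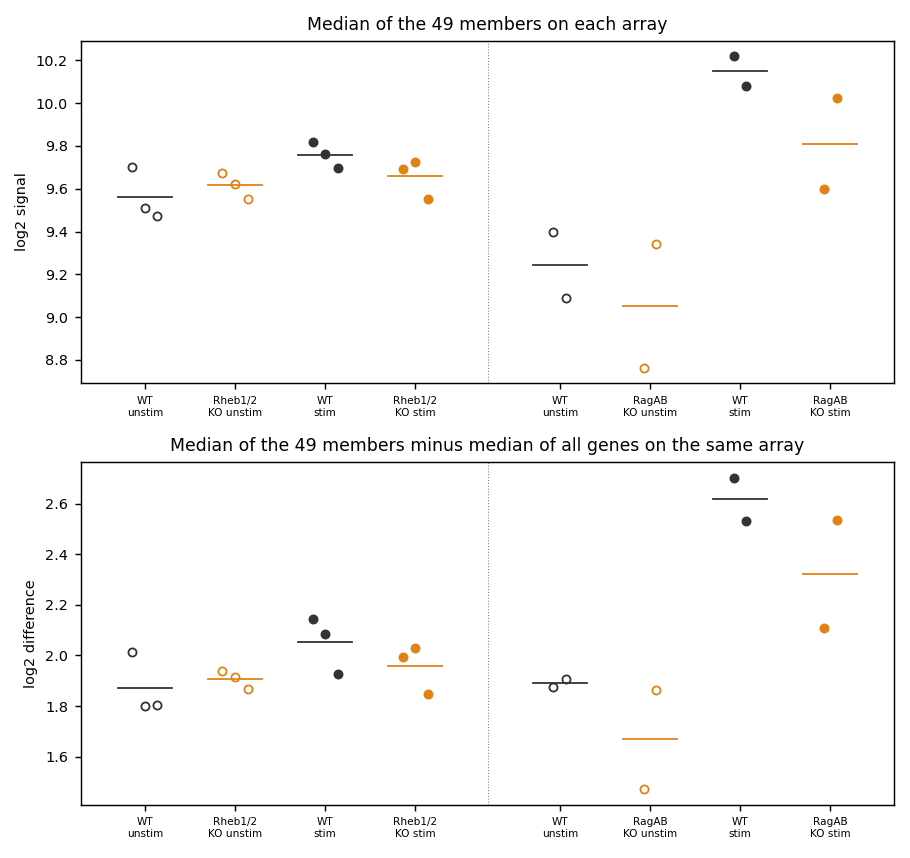
Each point is 1 array: the median log2 signal of the 49 members (upper plot) and the same minus the array's median over all genes (lower plot), by group, with WT in black, knockout in orange, stimulated arrays filled and group means as bars. The stimulated WT arrays of the Rag experiment lie at 10.2 and 10.1 in the upper plot, above every other array there, and RagAB KO unstimulated array 1 is the lowest at 8.76.

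On single arrays of the Rag experiment, the member median was 9.40 and 9.09 in unstimulated WT, 8.76 and 9.34 in unstimulated RagAB KO, 10.2 and 10.1 in stimulated WT and 9.60 and 10.02 in stimulated RagAB KO. Every stimulated array lay above every unstimulated one. RagAB KO arrays numbered 1 were the lower of their pair in both states, for 43 of 49 members unstimulated and 47 of 49 stimulated. The share of all genes lower on these arrays was not counted. Medians over all genes were 7.29 on array 1 and 7.48 on array 2 unstimulated, and 7.49 on both stimulated RagAB KO arrays. Unstimulated RagAB KO array 1 held the lowest of the 8 values for 31 of 49 members, against 27.2% of all genes.

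In WT Tregs of the Rheb experiment 8 members rose and 2 fell, where 4.49% of all genes rose and 4.89% fell. The 8 were Noc4l (0.82), Nop2 (0.62), Nop16 (0.48), Bysl (0.48), Rrn3 (0.45), Polr1b (0.42), Nip7 (0.41) and Wdr75 (0.36), and the 2 that fell were Ubtf (-0.51) and Utp18 (-0.47). In Rheb1/2 KO Tregs 3 members rose and 2 fell, where 4.55% of all genes rose and 5.19% fell. They were Nhp2 (0.63), Noc4l (0.62) and Nip7 (0.48), with Utp18 (-0.78) and Ubtf (-0.51) lower. For 19 members every stimulated WT array exceeded every unstimulated one (12.9% of all genes did so), and for 14 in Rheb1/2 KO (13.5%).

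Without stimulated WT array 1 the WT count in the Rheb experiment was 5, and without unstimulated WT array 2 it was 6. Noc4l, Nop2, Nop16, Polr1b and Ubtf were called in WT whichever of the 12 arrays was left out. Rrn3 was not called without unstimulated WT array 2 (0.33) or 3 (0.48), or stimulated WT array 1 (0.42) or 3 (0.43). Utp18 was not called without unstimulated WT array 1 (-0.46) or 3 (-0.43), or stimulated WT array 1 (-0.49), 2 (-0.47) or 3 (-0.44). Wdr75 was not called without unstimulated WT array 2 (0.33) or 3 (0.33) or stimulated WT array 1 (0.31). Nip7 was not called in WT without unstimulated array 1 (0.36) or 2 (0.40) or stimulated array 1 (0.38) or 2 (0.43), nor in Rheb1/2 KO without stimulated array 2 (0.38). Bysl was called in WT only without stimulated Rheb1/2 KO array 1 or 3; its change lay between 0.42 and 0.53 when any other array was left out.

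In WT Tregs of the Rag experiment 6 members rose and 0 fell, where 0.477% of all genes rose and 0.523% fell. These were Nop16 (1.55), Nolc1 (1.54), Nop2 (1.50), Rrp9 (1.27), Ddx56 (1.27) and Wdr12 (1.20). In RagAB KO Tregs 1 member rose, Gtpbp4 (1.26), where 1.2% of all genes rose and 0.123% fell. For 48 members both stimulated WT arrays exceeded both unstimulated ones, Ubtf being the exception, and for 36 in RagAB KO, against 37.3% and 31.9% of all genes. Nop2 and Nop16 were called in WT of both experiments, which is 20% of the 10 members called in the Rheb experiment and 33.3% of the 6 called in the Rag experiment.

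The array medians of the Rag experiment differed between states, and a second quantile normalization lowered the median over all genes from 0.21 to 0.04 in the WT response and from 0.09 to -0.03 in the RagAB KO response. After it the WT response still had 49 of 49 members above 0, with a median of 0.66 and 13 called, all higher, where 3.27% of all genes were called. The RagAB KO response had 40 of 49 above 0, with a median of 0.36 and 0 called. Leaving out single arrays moved these counts further. The WT count was 0 without unstimulated WT array 2 or stimulated WT array 1 or 2, where 0.0666% to 0.261% of all genes were called, and 17 without either unstimulated RagAB KO array, where 3.08% were. The RagAB KO count was 20 without unstimulated RagAB KO array 2 (9.99% of all genes) and 0 without any one of the other 7 arrays (0.231% to 1.02%). Leaving out an array of this experiment leaves a group of 1, which the fit takes to vary like the other groups.

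**Figure D2:**
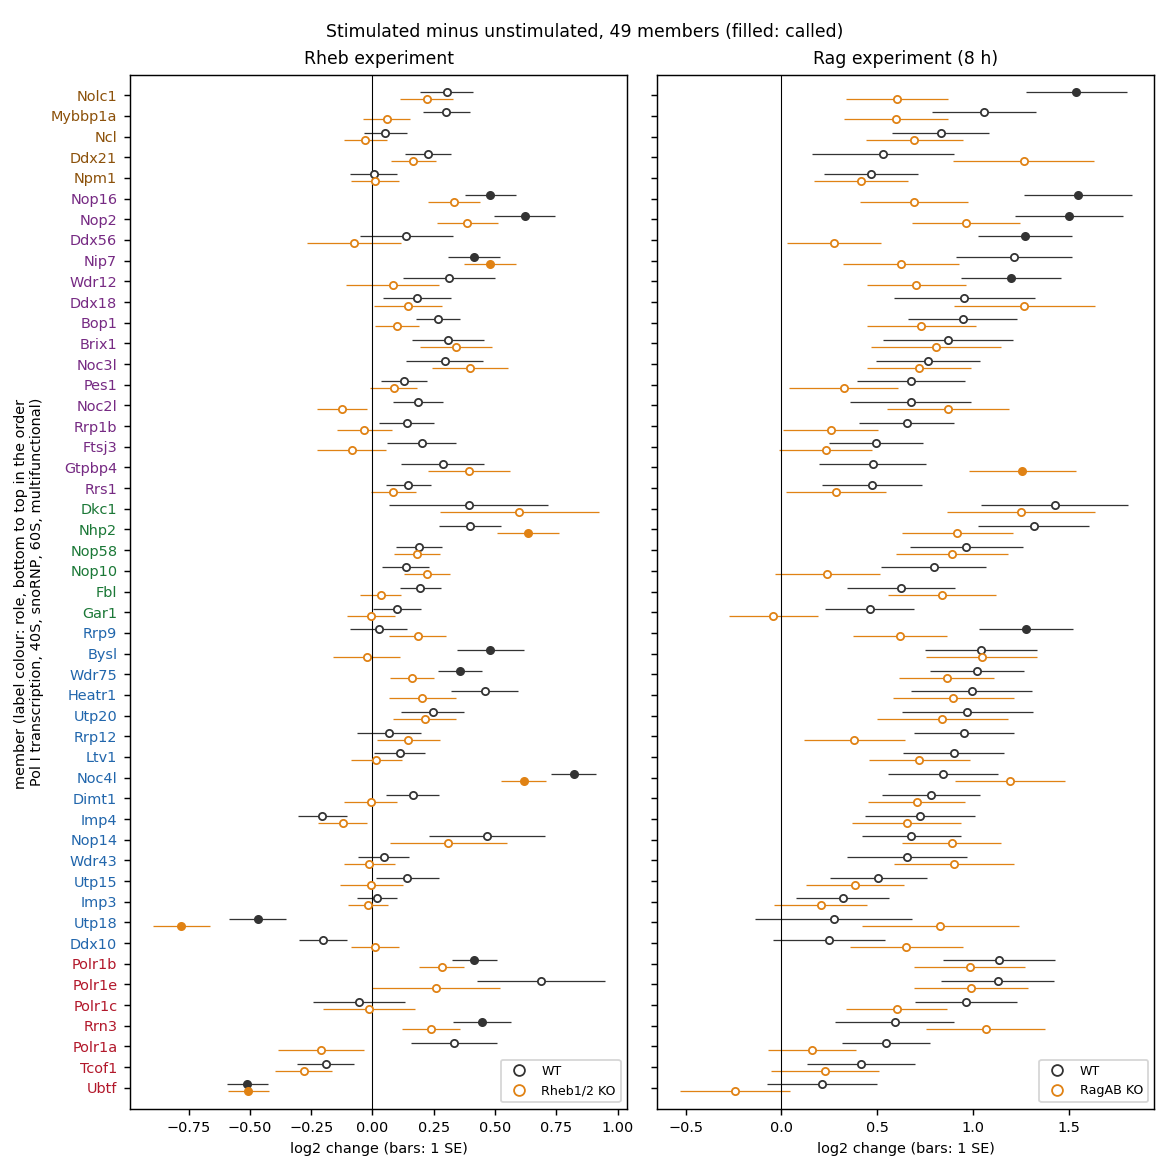
Each member's log2 change with stimulation (stimulated minus unstimulated, bars 1 SE) in the Rheb experiment (left) and the Rag experiment (right), WT in black and knockout in orange, with called members filled and members grouped by role. The axes of the 2 plots differ: members lie between -0.78 and 0.82 on the left and between -0.24 and 1.55 on the right.

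RNA polymerase I and its factors make up the first group, with 7 members. In WT Tregs of the Rheb experiment 2 of the 7 rose and 1 fell, where 4.49% of all genes rose and 4.89% fell. In the Rag experiment 0 of 7 was called although all 7 had a positive change (median 0.59, all genes 0.21). Polr1b, the second largest subunit of the polymerase, read 10.81, 10.62 and 10.55 on unstimulated and 11.06, 11.08 and 11.07 on stimulated WT arrays of the Rheb experiment, and 10.84, 10.72 and 10.75 unstimulated and 11.08, 11.05 and 11.02 stimulated on Rheb1/2 KO arrays. The groups did not overlap within either genotype, with a WT change of 0.42 ± 0.09 (3 arrays a group, adjusted p = 0.0111) and a KO change of 0.28 ± 0.09 (adjusted p = 0.0735). Here and below, changes are given ± the moderated SE of the limma fit, which pools the spread of all groups in an experiment. Its Rag experiment values were 10.97 and 10.46 in unstimulated and 11.90 and 11.79 in stimulated WT, and 10.26 and 11.01 unstimulated and 11.43 and 11.81 stimulated in RagAB KO, with changes of 1.13 ± 0.29 and 0.98 ± 0.29 that were not called (adjusted p = 0.0947 and 0.12).

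Rrn3, the initiation factor that brings the polymerase to the rRNA promoter and is a known target of growth signalling, read 9.11, 8.70 and 8.996 on unstimulated and 9.44, 9.29 and 9.42 on stimulated WT arrays of the Rheb experiment. It rose by 0.45 ± 0.12 in WT (adjusted p = 0.0296). In Rheb1/2 KO it read 8.74, 8.93 and 8.77 unstimulated and 9.14, 9.11 and 8.92 stimulated, so all 3 stimulated KO arrays lay below all 3 stimulated WT arrays, a difference of -0.33 ± 0.12 that was not called (adjusted p = 0.363). In the Rag experiment its values were 8.89 and 8.36 in unstimulated and 9.46 and 8.97 in stimulated WT, and 7.81 and 8.67 unstimulated and 9.18 and 9.43 stimulated in RagAB KO. Both genotypes had higher values after stimulation and neither change was called (adjusted p = 0.378 and 0.117).

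Polr1a, the largest catalytic subunit, read 8.72, 8.89 and 8.77 on unstimulated and 9.44, 9.04 and 8.91 on stimulated WT arrays of the Rheb experiment. On Rheb1/2 KO arrays it read 8.75, 8.63 and 9.21 unstimulated and 8.95, 8.54 and 8.47 stimulated. Stimulated KO arrays overlapped stimulated WT arrays, at a difference of -0.47 ± 0.17 (adjusted p = 0.382). On Rag experiment arrays it read 8.66 and 8.62 in unstimulated and 9.11 and 9.26 in stimulated WT, against 8.29 and 8.62 unstimulated and 8.53 and 8.69 stimulated in RagAB KO. Both stimulated RagAB KO arrays lay below both stimulated WT arrays, at -0.57 ± 0.23 (unadjusted p = 0.027, adjusted p = 0.905).

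Ubtf, which binds the rRNA genes along their length and keeps them open, fell with stimulation in the Rheb experiment. It read 10.01, 9.93 and 10.07 on unstimulated and 9.53, 9.48 and 9.48 on stimulated WT arrays, and 9.79, 9.85 and 9.79 unstimulated and 9.32, 9.35 and 9.23 stimulated on Rheb1/2 KO arrays. The states did not overlap in either genotype, and Ubtf fell by 0.51 ± 0.08 in each (adjusted p = 0.00166 in WT and 0.00159 in KO). KO arrays also lay below WT arrays within each state, by differences of -0.20 and -0.19 that were not called (adjusted p = 0.445 and 0.501). In the Rag experiment the values overlapped between states, 10.15 and 9.44 unstimulated and 10.06 and 9.95 stimulated in WT and 9.57 and 10.18 unstimulated and 9.51 and 9.75 stimulated in RagAB KO, and Ubtf had the lowest change of the 49 members in both genotypes (0.21 and -0.24). Tcof1, which encodes treacle, a partner of the polymerase and of Ubtf, had changes of -0.19, -0.28, 0.42 and 0.23 in WT and Rheb1/2 KO of the Rheb experiment and WT and RagAB KO of the Rag experiment. Polr1c and Polr1e, further subunits of the enzyme, were not called either (-0.05 and 0.69 in WT of the Rheb experiment, 0.96 and 1.13 in WT of the Rag experiment).

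The second group, 16 members, acts in the small subunit processome and in 40S assembly. In WT Tregs 3 rose and 1 fell in the Rheb experiment (median 0.13, all genes 0.02), where 4.49% of all genes rose and 4.89% fell. In WT Tregs of the Rag experiment 1 rose (median 0.81, all genes 0.21), where 0.477% of all genes rose. All 16 had non-overlapping higher values there, as did 37.3% of all genes. Noc4l, a 40S assembly factor, had the largest WT response of the members in the Rheb experiment. It read 9.42, 9.51 and 9.47 on unstimulated and 10.35, 10.24 and 10.28 on stimulated WT arrays, 0.82 ± 0.09 (1.77-fold; adjusted p = 0.000103). On Rheb1/2 KO arrays it read 9.30, 9.28 and 9.52 unstimulated and 9.98, 10.01 and 9.96 stimulated, 0.62 ± 0.09 (adjusted p = 0.0007). The 3 stimulated KO arrays lay below the 3 stimulated WT arrays, at -0.31 ± 0.09 (unadjusted p = 0.0054, adjusted p = 0.245), the smallest p of the members in that comparison. The Rag experiment gave 9.28 and 8.82 unstimulated and 10.24 and 9.55 stimulated in WT and 8.58 and 9.06 unstimulated and 10.03 and 9.99 stimulated in RagAB KO, where stimulated values of the genotypes overlapped and neither response was called (0.84 and 1.19).

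Heatr1, a large scaffold protein of the processome, read 9.47, 9.05 and 9.46 on unstimulated and 9.98, 9.77 and 9.59 on stimulated WT arrays of the Rheb experiment, and 9.02, 9.10 and 9.33 unstimulated and 9.31, 9.42 and 9.33 stimulated on Rheb1/2 KO arrays. Its WT change of 0.46 ± 0.14 missed the threshold (adjusted p = 0.0533). Stimulated KO arrays were again all below stimulated WT arrays, at -0.43 ± 0.14 (unadjusted p = 0.0077, adjusted p = 0.288). Arrays of the Rag experiment read 8.60 and 8.05 unstimulated and 9.43 and 9.20 stimulated in WT, and 7.59 and 8.46 unstimulated and 8.66 and 9.19 stimulated in RagAB KO, where the higher stimulated KO array was just under the lower WT array. The responses there were 0.99 ± 0.32 and 0.90 ± 0.32, with adjusted p = 0.18 and 0.192.

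Utp18, a WD-repeat subunit of the processome, fell with stimulation in the Rheb experiment. It read 8.91, 8.80 and 8.98 on unstimulated and 8.47, 8.43 and 8.38 on stimulated WT arrays, -0.47 ± 0.12 (adjusted p = 0.0217), and 9.02, 8.88 and 8.93 unstimulated and 7.99, 8.44 and 8.06 stimulated on Rheb1/2 KO arrays, -0.78 ± 0.12 (adjusted p = 0.000705). The states did not overlap in either genotype. In the Rag experiment it read 7.66 and 7.88 unstimulated and 8.09 and 7.99 stimulated in WT, a change of 0.27, and 6.27 and 7.88 unstimulated and 7.54 and 8.27 stimulated in RagAB KO, where unstimulated array 1 stood far below the other 7. Neither Rag experiment response was called (adjusted p = 0.734 and 0.393).

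Among the other members of this group, Rrp9, a protein of the U3 snoRNP, had no detectable change in WT of the Rheb experiment (0.03 ± 0.12) and rose by 1.27 ± 0.24 in WT of the Rag experiment (adjusted p = 0.0247). Its call ended without any 1 of the 4 WT arrays, at changes of 1.05 to 1.50. Bysl, which acts late on the 40S precursor, rose in WT of the Rheb experiment (0.48 ± 0.14, adjusted p = 0.0445) and read -0.02 in Rheb1/2 KO, and the difference of the responses, -0.51 ± 0.19, was not called (adjusted p = 0.741). Wdr75, another processome subunit, rose in WT of the Rheb experiment (0.36 ± 0.09, adjusted p = 0.0245). Utp15, Utp20, Wdr43, Imp3, Imp4, Nop14, Rrp12, Ltv1, Dimt1 and Ddx10 were called in no comparison, with responses from -0.20 (Imp4) to 0.47 (Nop14) in WT of the Rheb experiment and from 0.25 (Ddx10) to 0.97 (Utp20) in WT of the Rag experiment.

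**Figure D3:**
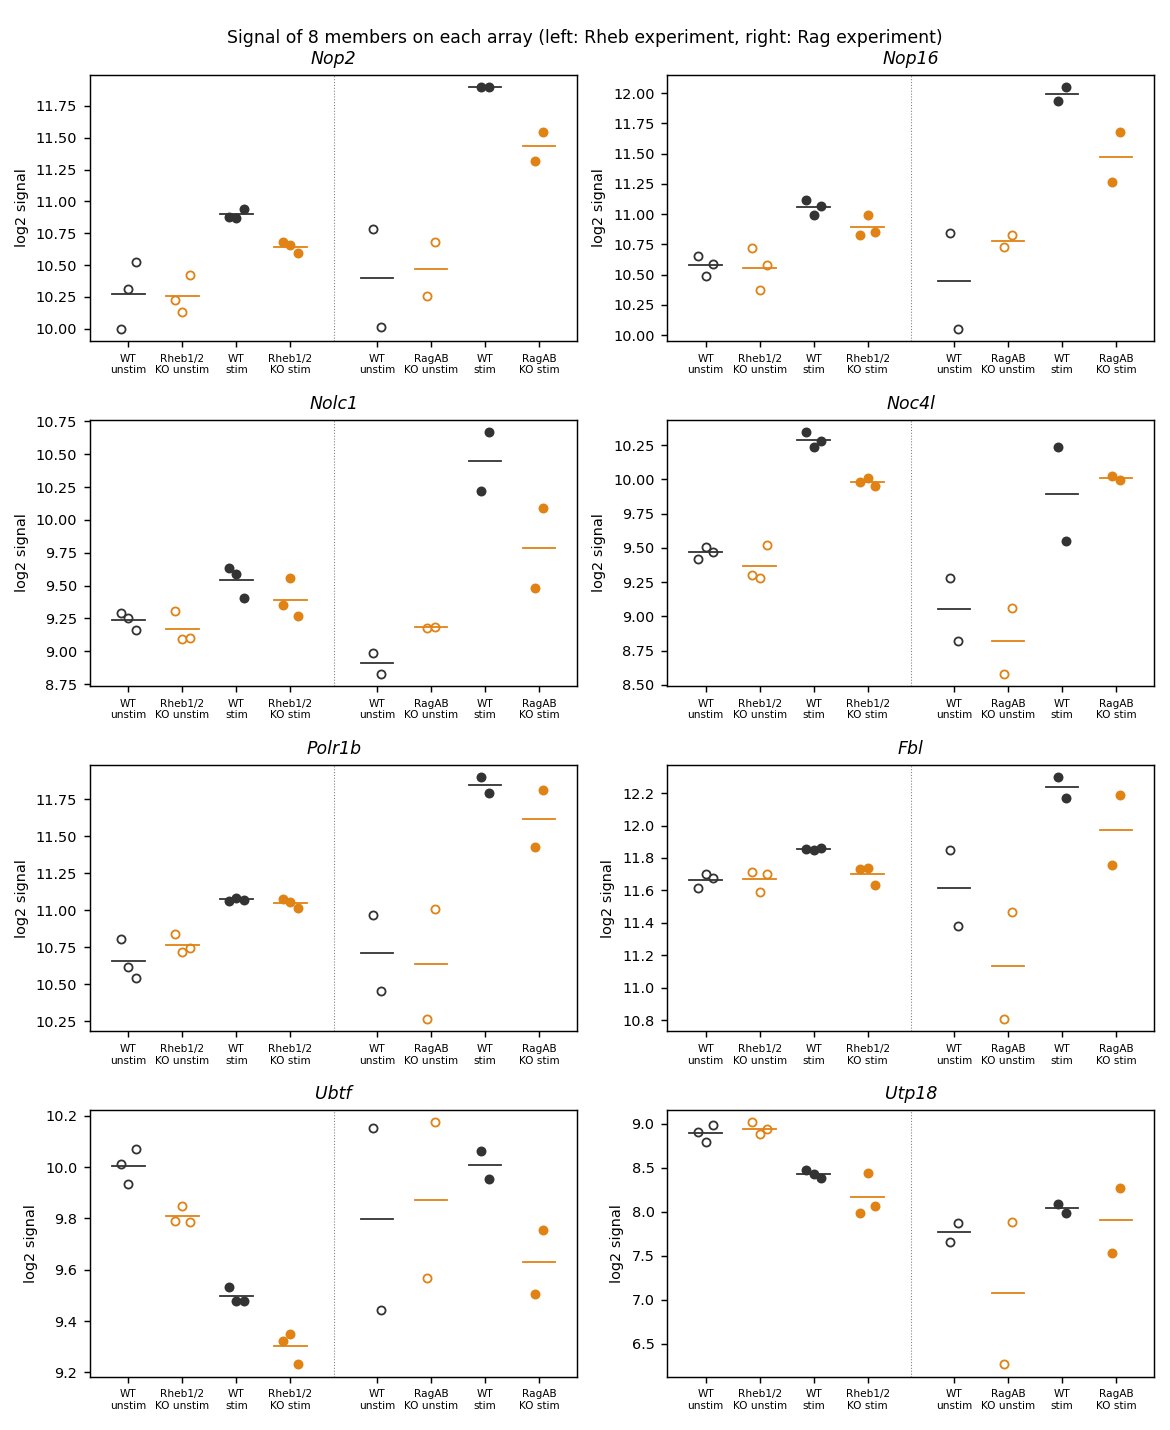
Log2 signal of 8 members on every array, by group (WT black, knockout orange, stimulated filled, bars group means; the dotted line separates the Rheb experiment, left, from the Rag experiment, right; each plot has its own scale). Nop2, Nop16 and Nolc1 are highest on the stimulated WT arrays of the Rag experiment, while Ubtf and Utp18 are lower on every stimulated than on every unstimulated array of the Rheb experiment.

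The core proteins of the snoRNPs, 6 measured members, direct ribose methylation and pseudouridylation of rRNA. All 6 had positive WT changes in both experiments (medians 0.19 and 0.88, all genes 0.02 and 0.21), and none was called in WT. Fbl, the methyltransferase fibrillarin, read 11.61, 11.70 and 11.67 on unstimulated and 11.86, 11.85 and 11.86 on stimulated WT arrays of the Rheb experiment, and 11.71, 11.59 and 11.70 unstimulated and 11.73, 11.74 and 11.63 stimulated on Rheb1/2 KO arrays. WT states did not overlap (0.20 ± 0.08, adjusted p = 0.196) and KO states did (0.03 ± 0.08, adjusted p = 0.899). On Rag experiment arrays it read 11.85 and 11.38 unstimulated and 12.30 and 12.17 stimulated in WT and 10.80 and 11.47 unstimulated and 11.76 and 12.19 stimulated in RagAB KO, with changes of 0.62 ± 0.28 and 0.84 ± 0.28 (adjusted p = 0.327 and 0.172).

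Nhp2, an RNA-binding core protein of the pseudouridylation complex, was the only member of this group called in any comparison. It read 10.39, 10.25 and 10.47 on unstimulated and 11.06, 11.05 and 10.90 on stimulated Rheb1/2 KO arrays, 0.63 ± 0.13 (adjusted p = 0.00521), a call that held whichever array was left out. In WT it read 10.52, 10.48 and 10.85 unstimulated and 11.17, 11.06 and 10.80 stimulated, with overlapping states and a change of 0.40 ± 0.13 that was not called (adjusted p = 0.0702); the difference of the responses was 0.24 ± 0.18 (adjusted p = 0.922). The Rag experiment gave 10.41 and 9.98 unstimulated and 11.32 and 11.70 stimulated in WT and 10.09 and 10.17 unstimulated and 10.64 and 11.44 stimulated in RagAB KO, and the WT change of 1.32 ± 0.29 missed the threshold (adjusted p = 0.0521). Dkc1, the pseudouridine synthase dyskerin, lay near the negative controls: 7.24, 6.62 and 7.04 unstimulated and 7.88, 7.14 and 7.06 stimulated in WT and 6.58, 5.94 and 7.22 unstimulated and 6.65, 7.68 and 7.20 stimulated in Rheb1/2 KO. Arrays of the Rag experiment read 6.89 and 6.84 unstimulated and 8.02 and 8.55 stimulated in WT, and 5.62 and 6.89 unstimulated and 7.07 and 7.94 stimulated in RagAB KO, without overlap in either genotype, and neither change was called (1.42 ± 0.38 and 1.25 ± 0.38). Nop58, Gar1 and Nop10, further core proteins, had changes of 0.96, 0.46 and 0.79 in WT and of 0.89, -0.04 and 0.24 in RagAB KO of the Rag experiment, with no call.

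Assembly of the 60S subunit is the role of 15 measured members. All 15 had positive WT changes in both experiments (medians 0.27 and 0.87, all genes 0.02 and 0.21). Of these, 3 rose in the Rheb experiment and 4 in the Rag experiment, where 4.49% and 0.477% of all genes rose. Nop2, an rRNA methyltransferase, read 9.998, 10.31 and 10.52 on unstimulated and 10.88, 10.87 and 10.94 on stimulated WT arrays of the Rheb experiment, 0.62 ± 0.12 (adjusted p = 0.00634). On Rheb1/2 KO arrays it read 10.22, 10.13 and 10.42 unstimulated and 10.68, 10.66 and 10.60 stimulated, 0.39 ± 0.12 (adjusted p = 0.0722). Every stimulated KO array lay under every stimulated WT array and above every unstimulated array, with a KO minus WT difference of -0.25 ± 0.12 (adjusted p = 0.584). Its Rag experiment values were 10.79 and 10.01 in unstimulated and 11.89 and 11.90 in stimulated WT, 1.50 ± 0.28 (n = 2 arrays per group; adjusted p = 0.023), and 10.26 and 10.68 unstimulated and 11.32 and 11.55 stimulated in RagAB KO, 0.96 ± 0.28 (adjusted p = 0.116). Stimulated RagAB KO arrays again lay between the stimulated WT arrays and all unstimulated arrays (-0.47 ± 0.28, adjusted p = 0.947).

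Nop16, a protein of early 60S precursors, had the same order of groups. Its values were 10.65, 10.49 and 10.58 on unstimulated and 11.11, 10.99 and 11.06 on stimulated WT arrays of the Rheb experiment (0.48 ± 0.11, adjusted p = 0.0106) and 10.72, 10.37 and 10.58 unstimulated and 10.82, 10.99 and 10.85 stimulated on Rheb1/2 KO arrays (0.33 ± 0.11, adjusted p = 0.068). In the Rag experiment they were 10.85 and 10.05 in unstimulated and 11.94 and 12.05 in stimulated WT, the largest WT response of the members there (1.55 ± 0.28, 2.92-fold; adjusted p = 0.0197). RagAB KO arrays read 10.73 and 10.83 unstimulated and 11.26 and 11.68 stimulated (0.69 ± 0.28, adjusted p = 0.263). Stimulated knockout arrays were below stimulated WT arrays in both experiments, the closest pair of the Rheb experiment by less than 0.01, at -0.17 and -0.53, and neither difference was called. The calls of Nop2 and Nop16 in the Rag experiment ended without unstimulated WT array 2 (1.11 and 1.15), stimulated WT array 1 (1.50 and 1.60) or stimulated WT array 2 (1.50 and 1.49).

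Nip7, which acts in 60S rRNA processing, read 8.49, 8.57 and 8.77 on unstimulated and 9.10, 8.99 and 8.99 on stimulated WT arrays of the Rheb experiment, and 8.52, 8.53 and 8.50 unstimulated and 8.91, 9.19 and 8.90 stimulated on Rheb1/2 KO arrays. It rose in both genotypes, by 0.41 ± 0.11 (adjusted p = 0.0258) and 0.48 ± 0.11 (adjusted p = 0.0104). In the Rag experiment it read 8.04 and 8.26 unstimulated and 9.26 and 9.47 stimulated in WT, without overlap, and 8.41 and 7.73 unstimulated and 8.30 and 9.10 stimulated in RagAB KO, with overlap. The WT change of 1.21 ± 0.30 was not called (adjusted p = 0.0873).

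Gtpbp4, a nucleolar GTPase of the 60S precursor, was the only member called in RagAB KO. It read 7.54 and 8.07 on unstimulated and 8.77 and 9.35 on stimulated RagAB KO arrays, 1.26 ± 0.28 (adjusted p = 0.047), and 8.64 and 9.09 unstimulated and 9.32 and 9.36 stimulated on WT arrays, 0.48 ± 0.28 (adjusted p = 0.407). Both unstimulated KO arrays lay under both unstimulated WT arrays, at -1.06 ± 0.28 (unadjusted p = 0.0022, adjusted p = 0.415), and the difference of the responses was 0.78 ± 0.40 (adjusted p = 0.728). Its call held only without unstimulated RagAB KO array 2. Without unstimulated RagAB KO array 1 the change was 0.99 (adjusted p = 0.283), without stimulated RagAB KO array 1 or 2 it was 1.55 or 0.97 (adjusted p = 0.0961 and 0.604), and without any 1 WT array it was 1.26 (adjusted p = 0.0708 to 0.0785). In the Rheb experiment Gtpbp4 read 9.45, 8.89 and 9.41 unstimulated and 9.80, 9.48 and 9.33 stimulated in WT and 8.87, 9.14 and 9.26 unstimulated and 9.37, 9.66 and 9.43 stimulated in Rheb1/2 KO, with no call (0.29 and 0.39).

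Pes1 forms a complex with Bop1 and Wdr12 that is needed to process 60S precursors. Pes1 read 11.46, 11.31 and 11.39 on unstimulated and 11.55, 11.59 and 11.41 on stimulated WT arrays of the Rheb experiment and 11.18, 11.32 and 11.34 unstimulated and 11.43, 11.39 and 11.28 stimulated on Rheb1/2 KO arrays, all overlapping. The Rag experiment gave 11.63 and 10.83 unstimulated and 11.93 and 11.88 stimulated in WT and 11.21 and 11.64 unstimulated and 11.65 and 11.85 stimulated in RagAB KO, higher on every stimulated array of a genotype but not called (0.67 ± 0.28 and 0.32 ± 0.28). Wdr12 rose by 1.20 ± 0.26 in WT of the Rag experiment (adjusted p = 0.048) and Bop1 had a change of 0.95 ± 0.28 (adjusted p = 0.154). The Wdr12 call was lost without any 1 WT array (1.06 to 1.33) or either stimulated RagAB KO array (1.20). Ddx56, a helicase of the 60S pathway, rose by 1.27 ± 0.24 (adjusted p = 0.0247) between levels that all lay under the 95th percentile of the negative controls; its call was lost without unstimulated WT array 2 (0.998), stimulated WT array 1 (1.30) or 2 (1.24), or either stimulated RagAB KO array (1.27). Noc2l, Noc3l, Rrs1, Ddx18, Ftsj3, Brix1 and Rrp1b were called in no comparison; Ddx18, another helicase, had the largest RagAB KO response of the members (1.27 ± 0.37, adjusted p = 0.116).

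The last group holds 5 abundant nucleolar proteins with several functions. Ncl, nucleolin, which binds rRNA precursors and chromatin, read 11.63, 11.49 and 11.53 on unstimulated and 11.69, 11.59 and 11.54 on stimulated WT arrays of the Rheb experiment and 11.55, 11.47 and 11.57 unstimulated and 11.51, 11.52 and 11.47 stimulated on Rheb1/2 KO arrays, with overlap between states. Arrays of the Rag experiment read 10.44 and 10.35 unstimulated and 11.20 and 11.26 stimulated in WT and 10.01 and 10.40 unstimulated and 10.63 and 11.16 stimulated in RagAB KO. Stimulated values there were higher in both genotypes, with both KO arrays under both WT arrays, and no Ncl difference was called (0.83 ± 0.25, 0.69 ± 0.25 and -0.34 ± 0.25). Npm1, nucleophosmin, a chaperone of ribosome subunits, read 12.34, 12.08 and 12.21 unstimulated and 12.27, 12.21 and 12.16 stimulated in WT and 12.08, 12.28 and 12.17 unstimulated and 12.11, 12.22 and 12.23 stimulated in Rheb1/2 KO, within 0.03 of no change on average in either response. Its Rag experiment values were 11.75 and 11.58 unstimulated and 12.14 and 12.12 stimulated in WT and 11.31 and 11.80 unstimulated and 11.82 and 12.12 stimulated in RagAB KO (0.47 ± 0.25 and 0.42 ± 0.25, not called).

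Nolc1, a chaperone of snoRNPs in the nucleolus, had the second largest WT response of the Rag experiment. It read 8.99 and 8.83 on unstimulated and 10.22 and 10.67 on stimulated WT arrays, 1.54 ± 0.26 (adjusted p = 0.0149), and 9.18 and 9.18 unstimulated and 9.48 and 10.09 stimulated on RagAB KO arrays, 0.60 ± 0.26 (adjusted p = 0.309). KO arrays lay above WT arrays unstimulated and below them stimulated. Its call ended without unstimulated WT array 2 (1.46), stimulated WT array 1 (1.76) or stimulated WT array 2 (1.31). In the Rheb experiment it read 9.30, 9.25 and 9.16 unstimulated and 9.64, 9.59 and 9.40 stimulated in WT, without overlap, and 9.31, 9.10 and 9.10 unstimulated and 9.35, 9.56 and 9.27 stimulated in Rheb1/2 KO, with no call (0.30 ± 0.11 and 0.22 ± 0.11). Mybbp1a, a nucleolar regulator of transcription, and the helicase Ddx21 were not called in any comparison; their WT changes were 0.30 and 0.23 in the Rheb experiment and 1.06 and 0.53 in the Rag experiment.

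No member was called between a knockout and its WT in either state. In unstimulated Rheb1/2 KO the members were centred on 0 (median -0.0025, all genes 0.02), with 24 above and 25 below, and 0 of 49 called where 0.508% of all genes were. Arrays of the genotypes did not overlap for 3 members that were higher and 4 that were lower, against 7.62% and 7.08% of all genes. An unadjusted p below 0.05 was found for 3 members, Noc2l (0.28), Ubtf (-0.20) and Ddx10 (-0.21), against 10.2% of all genes. In stimulated Rheb1/2 KO 38 of 49 were below 0 (median -0.10, all genes -0.0094), again with 0 called where 0.543% of all genes were. For 12 members, 24.5%, all 3 stimulated KO arrays lay below all 3 stimulated WT arrays, against 8.8% of all genes, and for 0 they lay above, against 6.75%. After a second quantile normalization 32 were below 0 and 9 did not overlap, against 7.86% of all genes. An unadjusted p below 0.05 was found for 9, with the smallest for Noc4l (-0.31), Heatr1 (-0.43) and Mybbp1a (-0.27), against 9.25% of all genes. The 95% interval of a member's difference in this experiment was typically ± 0.23, which limits the size of difference that these arrays could resolve.

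In unstimulated RagAB KO 35 of 49 members were below 0 (median -0.19, all genes 0.03), with 0 called where 0.0513% of all genes were called higher and 0.0615% lower (0.113% in all). The direction changed when unstimulated RagAB KO array 1 was left out: the median was then 0.05 (all genes 0.11) and 28 of 49 were above 0. Without unstimulated WT array 1 or 2 the median stayed negative, at -0.08 and -0.33 (all genes 0.20 and -0.14). After a second quantile normalization it was -0.06 with 21 above 0. Without unstimulated RagAB KO array 2 the median was -0.38 (all genes -0.05) and 4 members were called, where 2.72% of all genes were, with Gtpbp4 (-1.33) and Utp18 (-1.50) among them. An unadjusted p below 0.05 was found for 3, Gtpbp4 (-1.06), Ddx56 (0.64) and Ddx21 (-0.83), against 6.66% of all genes. In stimulated RagAB KO 45 of 49 were below 0 (median -0.36, all genes -0.05), with 0 called where 0.0923% of all genes were called higher and 0.0103% lower (0.103% in all). For 31 members, 63.3%, both KO arrays lay below both WT arrays, against 26.2% of all genes, and for 0 members they lay above, against 18.1%. RagAB KO array 1 alone lay below both WT arrays for 45 members and array 2 for 31. The share of all genes doing so on a single array was not counted, so these counts show no excess among the members. Without stimulated RagAB KO array 1 the median was -0.13 with 10 members above 0, and without array 2 it was -0.58, with all genes at -0.05 and -0.04. After a second quantile normalization 47 were below 0 (median -0.42) and 35 did not overlap, against 24.2% of all genes. The smallest unadjusted p values were those of Nolc1 (-0.66), Polr1a (-0.57) and Bop1 (-0.66), and 5 members had an unadjusted p below 0.05, against 5.07% of all genes. The 95% interval of a member's difference was typically ± 0.61 in this experiment.

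**Figure D4:**
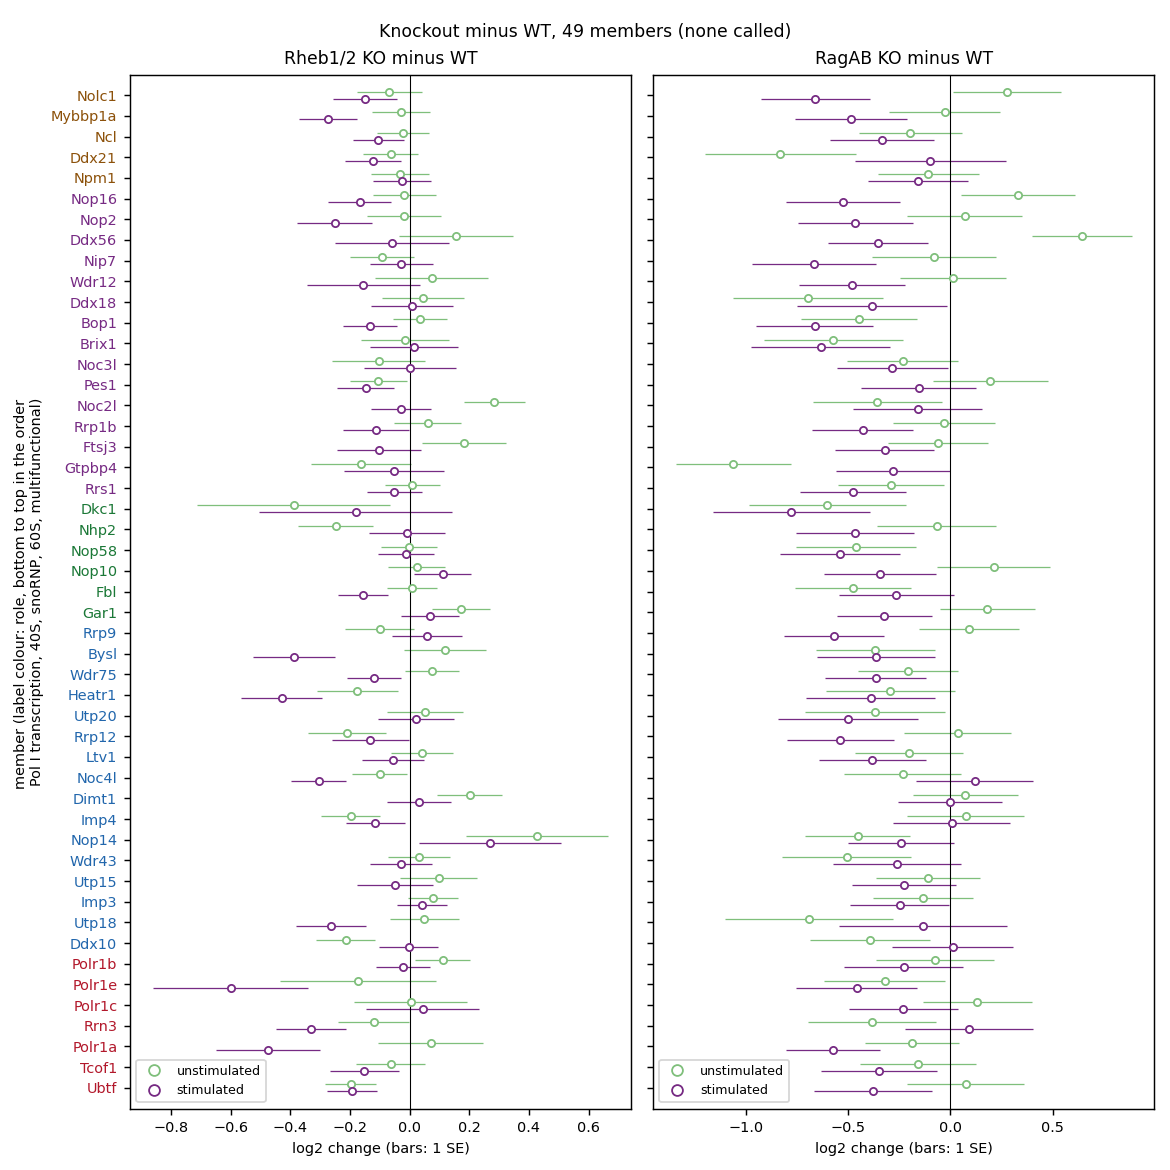
Each member's log2 difference between knockout and WT (bars 1 SE), unstimulated in green and stimulated in purple, for Rheb1/2 KO (left) and RagAB KO (right), with members grouped by role. No member is called; 38 of 49 stimulated Rheb1/2 KO and 45 of 49 stimulated RagAB KO differences lie below 0, on axes that differ between the plots.

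By role, the stimulated RagAB KO difference was below 0 for 6 of 7 polymerase I members (median -0.35), 13 of 16 of the 40S group (-0.25), 6 of 6 snoRNP proteins (-0.41), 15 of 15 of the 60S group (-0.43) and 5 of 5 of the multifunctional group (-0.34). In stimulated Rheb1/2 KO the medians were -0.19, -0.05, -0.01, -0.06 and -0.12 in the same order. After a second quantile normalization all 5 medians stayed negative in RagAB KO, while that of the snoRNP proteins in Rheb1/2 KO became 0.0077.

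The difference of the responses, knockout minus WT, tests whether stimulation acted on a member to a different extent. With Rheb1/2 KO 35 of 49 members had a smaller response than in WT (median difference -0.09, all genes -0.02), and with RagAB KO 37 of 49 (median -0.15, all genes -0.08). These differences share their arrays with the responses and the knockout differences above. No member was called in either, and the percentage of all genes called was 0 and 0, with 6.19% and 6.16% of all genes at an unadjusted p below 0.05. The largest differences of single members were those of Polr1a (-0.55 ± 0.25, adjusted p = 0.804) and Bysl (-0.51 ± 0.19, adjusted p = 0.741) with Rheb1/2 KO, and of Ddx56 (-0.997 ± 0.34), Nolc1 (-0.93 ± 0.37) and Nop16 (-0.86 ± 0.40, adjusted p = 0.728 each) with RagAB KO. Ddx56 lay under the 95th percentile of the negative controls on every array and below their median on 10 of the 20. The sign of the RagAB KO median depended on single arrays: it was 0.001 without unstimulated WT array 2, 0.05 without unstimulated RagAB KO array 2 and 0.08 without stimulated RagAB KO array 1, and -0.42 without unstimulated RagAB KO array 1. After a second quantile normalization it was -0.34 with 39 of 49 members below 0 (all genes -0.05), and 0 members were called.

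A further 100 measured genes of ribosome biogenesis, not among the members, were read in the same way. In WT of the Rheb experiment 7 of the 100 rose and 2 fell (median 0.14), where 4.49% of all genes rose and 4.89% fell. In WT of the Rag experiment 4 rose and 0 fell (median 0.54, 94 of 100 above 0), where 0.477% of all genes rose and 0.523% fell. In Rheb1/2 KO 8 rose and 0 fell, where 4.55% of all genes rose and 5.19% fell, and in RagAB KO 2 rose and 0 fell, where 1.2% rose and 0.123% fell. In WT of the Rheb experiment the largest were Rrp8 (0.71 ± 0.16, adjusted p = 0.0127), an rRNA-modifying enzyme, Riok1 (0.67 ± 0.11, adjusted p = 0.00184), a kinase of late 40S maturation, and Taf1b (-0.57 ± 0.11, adjusted p = 0.00562), a subunit of the polymerase I selectivity factor. Riok1 also rose in Rheb1/2 KO (0.83 ± 0.11, adjusted p = 0.000342), with Lyar (0.60 ± 0.14, adjusted p = 0.0145) and the ATPase Nvl (0.59 ± 0.12, adjusted p = 0.00743). In WT of the Rag experiment Pno1, a 40S assembly factor, rose by 2.28 ± 0.39 (4.86-fold, adjusted p = 0.0141), with Lyar (1.37 ± 0.29, adjusted p = 0.0429) and Nifk (1.23 ± 0.26, adjusted p = 0.041). In RagAB KO Riok1 (1.78 ± 0.26, adjusted p = 0.00511) and Nifk (1.17 ± 0.26, adjusted p = 0.0463) rose. None of the 100 was called between a knockout and its WT, and in stimulated RagAB KO 79 of 100 were below 0 (median -0.16, all genes -0.05).

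Marker genes of other cells and of cell handling moved in some of these comparisons, and their part in the members' changes was not tested. With stimulation in the Rheb experiment 9 of 12 macrophage and 5 of 12 dendritic cell genes fell in each genotype, and of 19 genes of the cell dissociation response 14 fell in WT and 15 in Rheb1/2 KO, where 4.89% and 5.19% of all genes fell. In unstimulated Rheb1/2 KO all 12 macrophage genes were above 0, with C1qa and Ms4a7 called, where 0.226% of all genes were called higher and the median over all genes was 0.02. In unstimulated RagAB KO 11 of 12 dendritic cell, 8 of 10 NK cell and 7 of 8 B cell genes were above 0, and the log2 of the summed dendritic cell signal was 11.9 to 12.1 against 10.6 to 11.2 in WT. In stimulated RagAB KO it was 11.8 to 11.9 against 11.1 in both WT arrays. Summed NK cell signal was 11.5 to 11.6 there against 10.8 to 11.3 in WT, while summed macrophage signal reached at most 10.22 against 10.02.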

How the data were processed

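Clariom S arrays were read from 20 Treg samples. The deposited values are log2 signals per probe set, which the authors made with RMA in Affymetrix Expression Console 1.1 per the submitters' processing notes; the sources used here do not say if the experiments were normalized jointly. Probe sets were named through the platform annotation: of 28846, 19572 carried 1 gene symbol, and the probe set with the highest mean was kept for each of 19505 genes. Each experiment was fitted separately in limma 3.58.1 (R 4.3.3), with 1 mean per group and Benjamini-Hochberg adjustment over all 19505 genes. The fit was tested on simulated data. Values for every array are given for a fixed list of members and for the called members with the largest rises and falls in each comparison. The latter were thus picked by size in these data. Other called members are named with their change. Members and gene lists were chosen with earlier results of these data known. Same-numbered arrays were checked for pairing, and residual correlations of single pairs ranged from -0.20 to 0.18 in the Rheb experiment. In the Rag experiment they ranged from -0.43 to 0.23, where 2 arrays per group give mirrored residuals that cannot settle pairing. The numbers were not used in the main fit. The alternatives tried were: quantile normalization applied again, leaving out dim genes, another variance prior, other sets of arrays in the fit, a replicate block and leaving out each array. The number of arrays limits the precision.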

Additional observations from a re-analysis of the deposited data

Results flagged for a closer look

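For 5 members the arrays moved in opposite directions in a pair of comparisons, every array of a group on the same side. How many of all genes did so was not counted, so no excess among the members can be read from this. Groups without overlap were common in single comparisons: 26.2% of all genes were lower in stimulated RagAB KO than in stimulated WT. With stimulation in the Rag experiment, 37.3% of all genes were higher without overlap in WT and 31.9% in RagAB KO. Ddx56 was higher in unstimulated RagAB KO (0.64) and lower in stimulated RagAB KO (-0.36) than in WT, 0.997 apart; the test of this difference within the Rag experiment did not call it (adjusted p = 0.728), and its levels lay under the 95th percentile of the negative controls. Nolc1 did the same (0.28 and -0.66, 0.93 apart; adjusted p = 0.728). The other 3 compare the experiments, and their differences were not tested. Utp18 fell with stimulation in WT of the Rheb experiment (-0.47) and had higher values in WT of the Rag experiment (0.27), a difference of -0.74. Imp4 had changes of -0.20 and 0.72 in the same comparisons, a difference of -0.93. Noc2l had a change of -0.13 in Rheb1/2 KO and 0.87 in RagAB KO, a difference of -0.996.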

How the results depend on the processing

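The percentages here are the shares of all genes tested that were called under the same setting. As reported, 9.37% and 9.75% were called in the WT and Rheb1/2 KO responses, 1% and 1.32% in the WT and RagAB KO responses of the Rag experiment and 0.113% in unstimulated RagAB KO. With all 20 arrays in the fit, the members called were 2 (4.13%) and 2 (4.72%) in the WT and Rheb1/2 KO responses of the Rheb experiment, 32 (9.89%) and 27 (11%) in the WT and RagAB KO responses of the Rag experiment, and 1 (1.08%) in unstimulated RagAB KO. With only the groups compared in the fit the counts were 6 (6%) in WT of the Rheb experiment, 16 (3.33%) in WT of the Rag experiment and 0 (0.308%) in RagAB KO; differences of responses need all groups and had no such fit. A second quantile normalization gave 13 (3.27%) in WT of the Rag experiment and 0 (1.96%) in RagAB KO, where the median fell to 0.36. In the Rheb experiment the filter on dim genes gave 14 (18.2%) in the WT and 8 (18.1%) in the Rheb1/2 KO response. In the Rag experiment it gave 11 (3.02%) in WT and 5 (4.52%) in RagAB KO. The trended, robust variance prior gave 15 (11.7%) in WT of the Rheb experiment and 9 (12%) in Rheb1/2 KO. With this prior the Rag experiment had 9 (2.51%) in WT and 4 (2.84%) in RagAB KO. Without both RagAB KO arrays numbered 1, chosen after seeing the data, the counts were 16 (3.33%) in WT of the Rag experiment and 0 (0.559%) in RagAB KO; each RagAB KO group then had 1 array, assumed to vary like the others. The causes of these shifts were not tested.

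The replicate block gave 3 members called (1.98% of all genes) in the RagAB KO response against 1 without it and ended the Bysl call in WT of the Rheb experiment (adjusted p = 0.074 in limma). The sources used here do not say whether equal numbers mark paired samples, so this says nothing of a weaker or stronger effect.

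Leaving out 1 array at a time, the members called ranged from 5 to 10 and 4 to 6 in the WT and Rheb1/2 KO responses, from 0 to 17 and 0 to 20 in the WT and RagAB KO responses of the Rag experiment, and from 0 to 4 in unstimulated RagAB KO; the other 5 comparisons stayed at 0. Member medians ranged from -0.06 to 0.02 and -0.13 to -0.06 in unstimulated and stimulated Rheb1/2 KO, 0.15 to 0.23 and 0.08 to 0.12 in the responses of the Rheb experiment, and -0.13 to -0.04 in their difference. In the Rag experiment they ranged from -0.38 to 0.05 and -0.58 to -0.13 in unstimulated and stimulated RagAB KO, 0.68 to 1.06 and 0.46 to 0.998 in the responses, and -0.42 to 0.08 in their difference. No called change reversed its sign under these alternatives.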
